A study of Mus musculus with 4 samples.

Results

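Kinesins, tubulins and the enzymes that modify tubulin were taken as every gene symbol in the tables that begins with Kif and a digit, Kifc, Tuba, Tubb, Tubg, Tubd, Tube1, Ttll, Katn or Agbl, or reads Tbca to Tbce. This gave 95 of 22552 symbols: 42 kinesins, 8 alpha-tubulins, 9 beta-tubulins, 9 genes of the gamma-, delta- and epsilon-tubulins and the gamma-tubulin ring complex, 13 Ttll ligases, 5 Agbl carboxypeptidases, 4 katanins and 5 tubulin cofactors. The RNA came from haploid testis cells of mice aged 23 days, labelled round spermatids and collected by flow cytometry on Hoechst, a DNA stain. The first group was 2 libraries from mice in which Sox30, a gene for a SOX-family transcription factor, was knocked out (strain labels DBA/C58/ICR and DBA/C60/ICR). The second was 2 libraries from wild-type (WT) mice (strain labels DBA/C57/ICR and DBA/C59/ICR). The strain labels count up by 1 from sample to sample across both genotypes, so whether they name different strains cannot be told. No treatment was labelled other than the sort. The labels do not describe the knockout allele or say whether libraries came from separate or pooled animals, so the p-values reflect library-to-library spread that could be purely technical.

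Microtubules are built from dimers of alpha- and beta-tubulin, of which mammals have several isotypes encoded by separate genes. Cofactors fold tubulin into dimers, gamma-tubulin rings start new microtubules, katanins cut them, kinesins walk along them or take them apart at their ends, and Ttll and Agbl enzymes add and remove glutamate or glycine side chains on tubulin. In the testis these proteins build the meiotic spindles, then the manchette around the spermatid nucleus and the axoneme of the sperm tail, and Tuba3a and Tuba3b are the alpha-tubulin genes best known from testis.

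Levels were given as FPKM, fragments scaled to transcript length and to the mapped fragments of the library, so levels of different genes can be set side by side per length. Taking WT library 1 as 1, relative depth estimated from repeated ratios among values under 1 FPKM was 1.24 and 1.17 for knockout libraries 1 and 2 and 1.39 for WT library 2, and absolute depth is unknown. Sox30 itself had 1.46 and 3.16 FPKM in the knockout libraries, against 11.4 and 16.2 FPKM in the WT libraries. Markers of round spermatids summed to 591 and 387 FPKM in the knockout, against 1882 and 1672 FPKM in the WT (7 genes, none at 0). The fall was not uniform. Acrv1, Spaca1, Tssk1 and Catsper3 fell, with log2 changes from -3.21 to -6.33. Crem, Acr and Zpbp, most of the knockout sum, did not pass (limma adjusted p = 0.394, 0.0602 and 0.347). Summed markers of several other testis cells also differed by genotype. Sertoli cell markers (5 genes) did so less clearly, with sums of 63.5 and 21.9 FPKM in the knockout, against 83.0 and 221 FPKM in the WT. Nearly all of these sums was Clu, which did not pass (limma adjusted p = 0.126). Of 5 Leydig cell markers, 4 and 5 were under 0.001 FPKM in the knockout libraries, while their sum was 60.01 and 36.8 FPKM in the WT libraries. Blood and macrophage markers (6 genes) summed to 8.26 and 0.283 FPKM in the knockout, against 242 and 132 FPKM in the WT. Nearly all of that sum was the globins Hba-a1 and Hbb-b1, while the macrophage markers Cd68 and Csf1r were each highest in a knockout library, at 0.811 and 0.283 FPKM. Meiotic prophase markers (8 genes) summed to 283 and 303 FPKM in the knockout, against 492 and 411 FPKM in the WT. None of the 8 passed (limma adjusted p from 0.0529 to 0.919), and Piwil1 overlapped between genotypes. Spermatogonium markers (6 genes) summed to 6.03 and 3.28 FPKM in the knockout, against 29.1 and 32.5 FPKM in the WT. Peritubular markers (3 genes) summed to 1.34 and 2.23 FPKM in the knockout, against 8.56 and 7.07 FPKM in the WT. Most of that WT sum was Acta2, at 7.61 and 6.39 FPKM, while Tagln was highest in knockout library 2, at 2.23 FPKM. In such bulk samples, fewer cells of a type and less RNA per cell cannot be told apart.

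The most abundant tubulin transcripts stayed abundant in the knockout, and a small set of less abundant genes was lost or much reduced: the alpha-tubulins Tuba8 and Tuba4a, the beta-tubulin Tubb6, the ligases Ttll2, Ttll8 and Ttll10, and the kinesin Kif2b. Of the 95 genes, 62 had a mean of at least 1 FPKM over the 4 libraries and were tested, and at a limma adjusted p under 0.05 these 7 fell, 0 rose and 55 did not pass. That is 11.3% of those tested, and over all 9124 genes tested 13.4% fell and 1.95% rose, so the share of falls was close to the background. At an unadjusted p under 0.05, 18 of the 62 passed, and 2860 of all 9124 genes tested. Both knockout values lay below both WT values for 29 of the 62 (46.8%, against 38.6% of all genes tested) and above both for 8 (12.9%, against 22.2%). The median log2 change of the 62 was -0.59, against -0.23 for all genes tested, a difference of -0.36. The members' median was -0.27 without knockout library 2 and -0.31 without WT library 2, against -0.06 and -0.13 for all genes. The difference was -0.39 with median-ratio scaling and -0.34 with quantile normalization, and smaller after a GC correction (-0.15), with a pseudocount of 5 (-0.18), with no filter on low values (-0.21), without WT library 2 (-0.18) and without knockout library 2 (-0.21). The number of calls moved with the library left out. Without WT library 1 only Ttll2 passed (4.23% of all genes fell), and without WT library 2 no gene of the whole table did (limma, with 1412 genes at an unadjusted p below 0.05). With knockout library 1 left out, 26 of the 62 fell, the 7 among them, and 3 rose, where 33.7% of all genes fell and 10.8% rose. With knockout library 2 left out, 9 fell, again with the 7 among them, and 6 rose, where 20.2% of all genes fell and 9.84% rose. In each of these fits a genotype has a lone library, whose spread is assumed to be like that of the other genotype's pair. The calls then follow the spread of that pair, so they cannot tell whether the falls rest on the library left out. The changes themselves stayed negative for all 7 without WT library 1 or 2, from -1.63 (Ttll2) to -5.65 (Tuba8), both without WT library 2. With either median-ratio scaling or quantile normalization the same 7 fell and 2 rose, Tbcc and Kifc3, and over all genes quantile normalization gave 1012 falls and 606 rises, against 1221 and 178 without it.

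**Figure D1:**
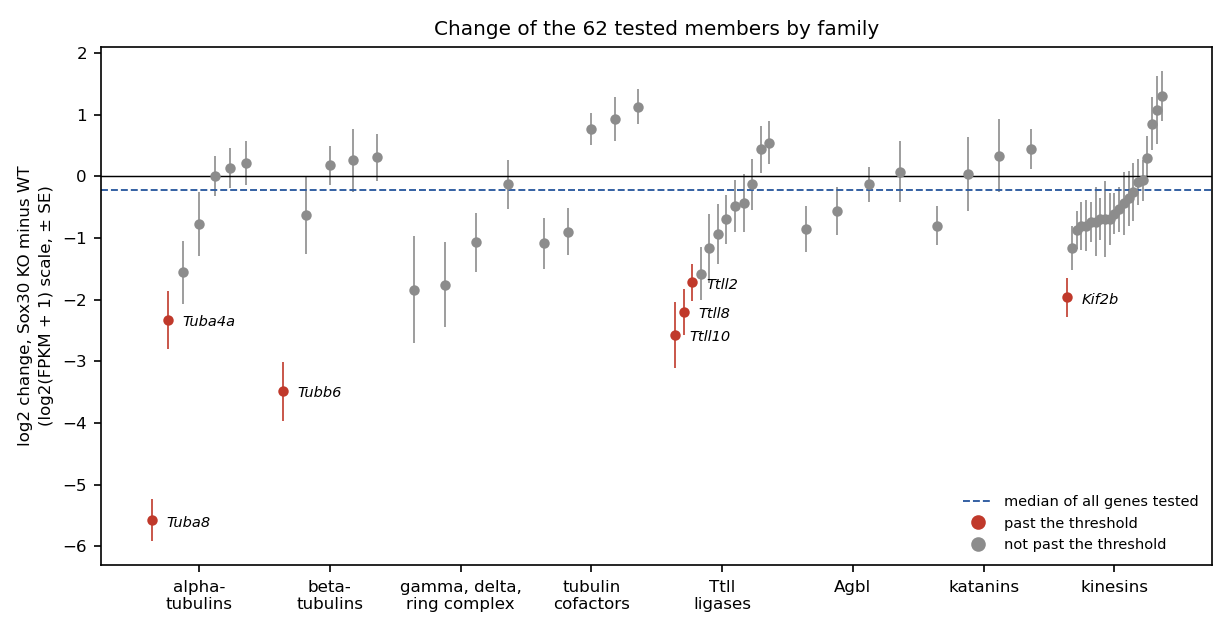
Log2 change, knockout minus WT, on the log2(FPKM + 1) scale for the 62 tested genes, ordered by size within each family; bars are standard errors from the limma fit and red points are the 7 genes past the threshold. Tuba8 is lowest at -5.58, Kifc3 is highest at 1.31, and the dashed line is the median of all 9124 genes tested, -0.23.

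The testis alpha-tubulins dominated in both genotypes. Tuba3b had 1303 and 833 FPKM in the knockout libraries, against 964 and 1119 FPKM in the WT libraries. Tuba3a had 1169 and 776 FPKM in the knockout, against 749 and 1009 FPKM in the WT. The genotypes overlapped for both genes, with log2 changes of 0.00 (SE 0.32) for Tuba3b and 0.13 (SE 0.33) for Tuba3a (limma adjusted p = 0.993 and 0.818). These near-identical genes may share reads, so their split is uncertain. Summed, they made up 98.6% and 98.1% of all alpha-tubulin FPKM in the knockout libraries and 94.9% and 95.2% in the WT libraries. By rank among all genes, Tuba3b was number 70 and 164 in the knockout libraries and number 90 and 52 in the WT libraries.

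Tuba8, an alpha-tubulin with a divergent sequence that is known from testis, muscle and brain, showed the largest fall of the 62. It was listed at 0 in knockout library 1 and at 0.138 FPKM in knockout library 2, against 52.4 and 47.4 FPKM in the WT libraries. On the log2 scale it fell by 5.58 (SE 0.34, limma adjusted p = 5.58e-04). It was 0% and 0.0084% of alpha-tubulin FPKM in the knockout libraries, against 2.90% and 2.12% in the WT libraries, where it was the next gene after Tuba3a and Tuba3b. Without WT library 1 the adjusted p was 0.0517 and without WT library 2 it was 0.0653, with changes of -5.50 and -5.65.

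Tuba8 and Ttll2 fell while Tuba3a and Tuba3b did not, and promoters of the other fallen genes are not printed. The promoters of the testis alpha-tubulins that were kept and lost, and that of Ttll2, are shown. Each runs from 250 bases before to 50 bases after the annotated start (RefSeq, GRCm38.p6), 5′ to 3′ on the gene's strand: Tuba8 at chr6:121210484-121210783 (plus strand), Tuba3a at chr6:125286032-125286331 (minus), Tuba3b at chr6:145615713-145616012 (plus) and Ttll2 at chr17:7352647-7352946 (minus). Capitals mark ACAAT, the core letters bound by SOX proteins, and CCAAT, the CCAAT box, on either strand (ATTGT and ATTGG in reverse).
Tuba8: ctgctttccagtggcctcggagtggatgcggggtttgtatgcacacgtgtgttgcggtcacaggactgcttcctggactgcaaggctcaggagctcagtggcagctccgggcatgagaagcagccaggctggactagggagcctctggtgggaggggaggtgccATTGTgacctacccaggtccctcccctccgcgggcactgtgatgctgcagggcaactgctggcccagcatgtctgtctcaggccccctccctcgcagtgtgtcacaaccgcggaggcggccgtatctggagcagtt
Tuba3a: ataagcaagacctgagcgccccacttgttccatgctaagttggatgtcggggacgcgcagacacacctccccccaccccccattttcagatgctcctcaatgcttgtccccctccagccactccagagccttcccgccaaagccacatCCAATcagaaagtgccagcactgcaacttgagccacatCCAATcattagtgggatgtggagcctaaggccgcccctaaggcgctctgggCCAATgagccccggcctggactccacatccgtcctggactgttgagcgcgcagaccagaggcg
Tuba3b: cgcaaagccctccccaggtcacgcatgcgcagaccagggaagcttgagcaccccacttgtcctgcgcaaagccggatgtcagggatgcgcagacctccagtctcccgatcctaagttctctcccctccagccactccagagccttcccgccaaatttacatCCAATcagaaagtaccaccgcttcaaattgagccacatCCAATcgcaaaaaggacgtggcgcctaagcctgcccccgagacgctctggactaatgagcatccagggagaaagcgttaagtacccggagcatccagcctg
Ttll2: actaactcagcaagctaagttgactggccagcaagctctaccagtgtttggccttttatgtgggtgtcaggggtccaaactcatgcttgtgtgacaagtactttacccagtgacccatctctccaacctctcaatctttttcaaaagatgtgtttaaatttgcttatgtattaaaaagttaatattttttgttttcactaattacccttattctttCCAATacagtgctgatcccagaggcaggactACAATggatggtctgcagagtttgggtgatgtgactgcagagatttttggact
The Tuba8 window held 1 reverse SOX core, starting 86 bases before the start, and no CCAAT box. Tuba3a held 3 CCAAT boxes, 102, 64 and 13 bases before the start, and Tuba3b held 2, at 89 and 51 bases, and neither held a SOX core. Both windows share a run of 33 bases, while the longest run Tuba8 shares with either is 10 bases. Ttll2 held 1 SOX core and 1 CCAAT box. Of the 7 fallen genes 6 were matched to a promoter, and 2 of them held a SOX core, the printed Tuba8 and Ttll2. So did 11 of the 45 matched genes that did not pass (24.4%) and 31.7% of 27025 promoters. A CCAAT box stood in 3 of the 6, 24 of the 45 matched genes that did not pass, and 37.8% of all promoters. These matches describe letters and are not evidence of binding.

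The somatic alpha-tubulins were minor. Tuba4a, whose protein lacks the usual terminal tyrosine, had 1.13 FPKM and was listed at 0 in the knockout libraries, against 5.50 and 7.19 FPKM in the WT libraries. It fell by 2.32 (SE 0.47, limma adjusted p = 0.0245), and the call ended with a pseudocount of 0.1 (0.113), with no filter on low values (0.0918) and without WT library 1 (0.315) or 2 (0.377). Tuba1c, a widely expressed isotype, had 4.28 and 1.18 FPKM in the knockout, against 7.79 and 10.4 FPKM in the WT, without overlap, and did not pass (limma adjusted p = 0.105). Tuba1b and Tuba1a overlapped, at 16.5 and 23.3 against 14.2 and 19.8 FPKM for Tuba1b and 12.6 and 5.58 against 10.7 and 21.3 FPKM for Tuba1a. The Tuba1 genes resemble each other and may share reads. Tuba1a, Tuba1b, Tuba1c and Tuba4a together made 1.38% and 1.83% of alpha-tubulin FPKM in the knockout and 2.12% and 2.63% in the WT.

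**Figure D2:**
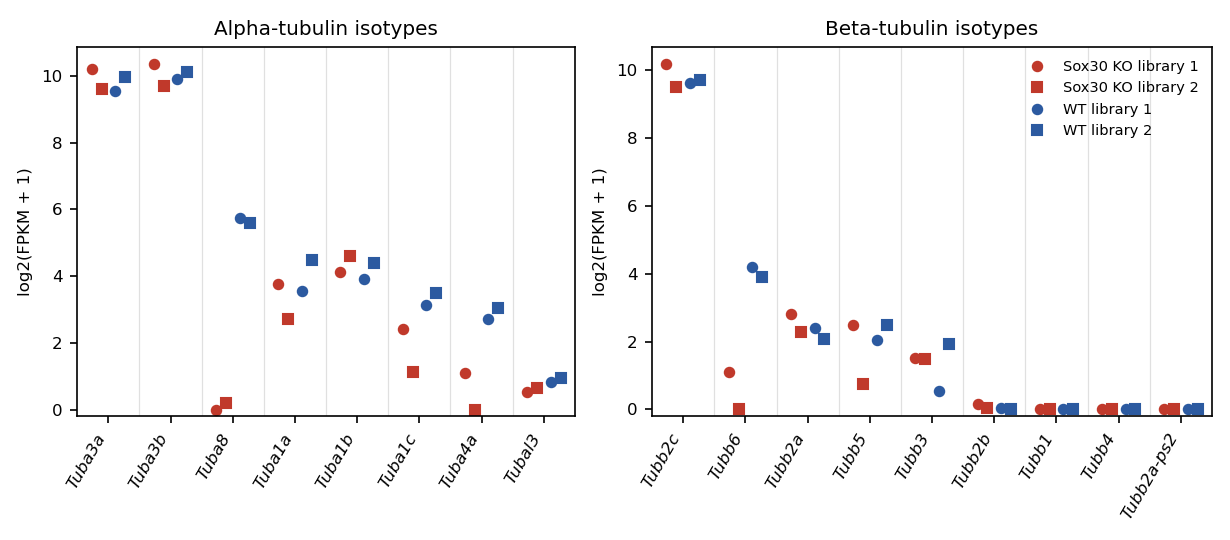
Levels of the 8 alpha-tubulin genes (left) and 9 beta-tubulin genes (right) in each library, as log2(FPKM + 1); knockout libraries are red and WT libraries blue, circles library 1 and squares library 2. Tuba3a, Tuba3b and Tubb2c lie far above the rest with the genotypes mixed, while Tuba8, Tuba4a and Tubb6 are separated by genotype.

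Beta-tubulin was likewise dominated by a lone gene. Tubb2c, now named Tubb4b and the main beta-tubulin of cilia, had 1140 and 718 FPKM in the knockout libraries, against 771 and 827 FPKM in the WT libraries, an overlap (log2 change 0.18, SE 0.32, limma adjusted p = 0.733). It made 98.8% and 99.1% of beta-tubulin FPKM in the knockout and 96.8% and 97.1% in the WT. Tubb6, a beta-tubulin of many somatic tissues, had 1.16 FPKM and was listed at 0 in the knockout libraries, against 17.3 and 13.8 FPKM in the WT libraries. It fell by 3.48 (SE 0.48, limma adjusted p = 0.0060). The call ended with a pseudocount of 0.1 (0.0625) and without WT library 1 (0.258) or 2 (0.255). The sums of Leydig, blood, peritubular and spermatogonium markers given above are higher in the same WT libraries as Tubb6, Tuba4a and Tuba8, and their part in these falls was not tested. Tubb2a, at 6.002 and 3.88 FPKM in the knockout and 4.24 and 3.24 FPKM in the WT, Tubb5 and Tubb3 did not pass. Tubb1, known from platelets, Tubb4 and the pseudogene Tubb2a-ps2 were listed at 0 in all 4 libraries, and Tubb2b stayed at or under 0.122 FPKM. Under quantile normalization the small changes of Tuba3a, Tuba3b and Tubb2c turned negative (-0.33, -0.49 and -0.25), none past the threshold.

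None of the 5 tubulin cofactors passed, and 3 of them were abundant. Tbcc, the cofactor that triggers GTP hydrolysis when the dimer is released, had 133 and 108 FPKM in the knockout, against 52.7 and 56.3 FPKM in the WT. Its log2 change of 1.12 (SE 0.28) just missed the threshold (limma adjusted p = 0.0504). It passed with median-ratio scaling (0.0344), quantile normalization (0.0187), a pseudocount of 5 (0.0439) and without knockout library 1 (0.0124) or 2 (0.00162). It did not pass with a pseudocount of 0.1 (0.0577), no filter on low values (0.0669), the library number as a block (0.144) or after the GC correction, which lowered the change to 0.68 (0.239). Nor did it pass without WT library 1 or 2, with changes of 1.08 and 1.17. Tbca, which holds beta-tubulin, had 505 and 900 FPKM in the knockout, against 385 and 326 FPKM in the WT (limma adjusted p = 0.145). After the GC correction Tbca passed, with a change of 1.69 (limma adjusted p = 0.0251). Tbcb, which holds alpha-tubulin, had 250 and 231 FPKM in the knockout, against 147 and 135 FPKM in the WT (limma adjusted p = 0.113). All 3 had both knockout values above both WT values. Tbce and Tbcd, which act with them on the dimer, lay the other way at lower levels, Tbce at 7.71 and 4.52 against 12.1 and 11.7 FPKM and Tbcd at 0.553 and 0 against 1.03 and 2.43 FPKM, neither past the threshold.

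Among gamma-tubulin and its relatives none of the 4 tested genes passed, and the 4 changes were all negative. Tubg1, the main gamma-tubulin, had 6.78 and 0.199 FPKM in the knockout libraries, against 9.08 and 10.8 FPKM in the WT libraries, so that knockout library 2 alone was far lower (limma adjusted p = 0.208). Tubd1, delta-tubulin, which is needed for the triplet microtubules of centrioles, had 14.8 and 5.74 FPKM in the knockout, against 19.9 and 21.5 FPKM in the WT (0.188). Tubgcp2, a ring subunit, overlapped at 12.8 and 9.93 against 9.35 and 16.4 FPKM. Tubgcp4, another subunit, had 3.35 and 0.280 FPKM in the knockout, against 4.61 and 10.4 FPKM in the WT (0.148). Tube1, epsilon-tubulin, was just under the level tested with a mean of 0.959 FPKM, at 0.303 and 0.0201 FPKM in the knockout and 1.88 and 1.63 FPKM in the WT. Both Tubg1 and Tubd1 depended on knockout library 2: without it their changes were -0.49 and -0.46 (limma adjusted p = 0.420 and 0.389), and with it as the lone knockout library they were -3.19 and -1.69.

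The Ttll family held 3 of the 7 falls among its 12 tested members, with a median log2 change of -0.82, where 13.4% of all genes tested fell and their median was -0.23. Whether the family differs from other genes was not tested. Ttll8, which attaches the first glycine of a side chain, had 0.428 and 0.396 FPKM in the knockout libraries, against 4.24 and 7.03 FPKM in the WT libraries. It fell by 2.20 (SE 0.37, limma adjusted p = 0.0130). Ttll10, which lengthens glycine chains, had 8.32 and 2.52 FPKM in the knockout, against 27.9 and 39.1 FPKM in the WT. It fell by 2.57 (SE 0.54, limma adjusted p = 0.0270). Ttll3, the other enzyme that attaches a first glycine, had 3.27 and 2.02 FPKM in the knockout, against 3.72 and 8.96 FPKM in the WT, and did not pass (limma adjusted p = 0.247). Ttll2, a poorly studied member grouped with the glutamate ligases, was listed at 0 in both knockout libraries, against 2.09 and 2.51 FPKM in the WT libraries (limma adjusted p = 0.0146). The Ttll10 call ended with a pseudocount of 0.1 (0.0600), and those of Ttll10 and Ttll8 with no filter on low values (0.0889 and 0.0626). Without WT library 1 the adjusted p was 0.361 for Ttll10, 0.0742 for Ttll8 and 0.0468 for Ttll2, and without WT library 2 it was 0.434, 0.108 and 0.0658.

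The glutamate ligases with the highest levels did not pass. Ttll9, which in mouse acts on the sperm tail, had 72.5 and 22.4 FPKM in the knockout libraries, against 90.3 and 94.4 FPKM in the WT libraries (limma adjusted p = 0.212). It passed without knockout library 1, with a change of -1.99 against -0.34 without knockout library 2, so the low value of knockout library 2 decides its size. Ttll13 had 32.7 and 21.0 FPKM in the knockout, against 33.4 and 55.9 FPKM in the WT (0.284). Ttll1, the catalytic subunit of a glutamate ligase complex, overlapped at 28.5 and 16.2 against 14.6 and 16.7 FPKM, as did Ttll5 and Ttll6. Ttll7, a beta-tubulin glutamate ligase, had 4.68 and 2.08 FPKM in the knockout, against 11.1 and 11.9 FPKM in the WT, without overlap (limma adjusted p = 0.0615). Ttll12, at 0 and 0.0306 against 0.233 and 0.503 FPKM, was too low to be tested.

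The enzymes that trim side chains and those that cut microtubules did not pass. Agbl4, a cytosolic carboxypeptidase that removes glutamates, overlapped at 86.6 and 68.2 FPKM in the knockout and 86.7 and 81.8 FPKM in the WT (log2 change -0.13, SE 0.29, limma adjusted p = 0.793). Agbl5, which removes the branch-point glutamate, overlapped at 57.0 and 34.0 against 27.2 and 63.6 FPKM. Agbl2, at 10.9 and 8.61 against 11.5 and 19.1 FPKM, and Agbl3, at 6.19 and 4.51 against 8.94 and 12.03 FPKM, lay lower in the knockout without overlap. Agbl1 was listed at 0 in both knockout libraries and at 0.890 and 0.772 FPKM in the WT libraries, too low to be tested. Of the katanins, Katna1, a cutting subunit, had 14.1 and 17.2 FPKM in the knockout, against 29.2 and 26.6 FPKM in the WT (limma adjusted p = 0.148). Katnal1, its relative, had 24.8 and 24.9 FPKM in the knockout, against 15.4 and 20.9 FPKM in the WT (0.393). Katnal2, needed in mouse for sperm head shaping, had 60.4 and 18.6 FPKM in the knockout, against 24.8 and 43.2 FPKM in the WT. For Katnal2 the libraries within a genotype differed more than the genotypes did.

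**Figure D3:**
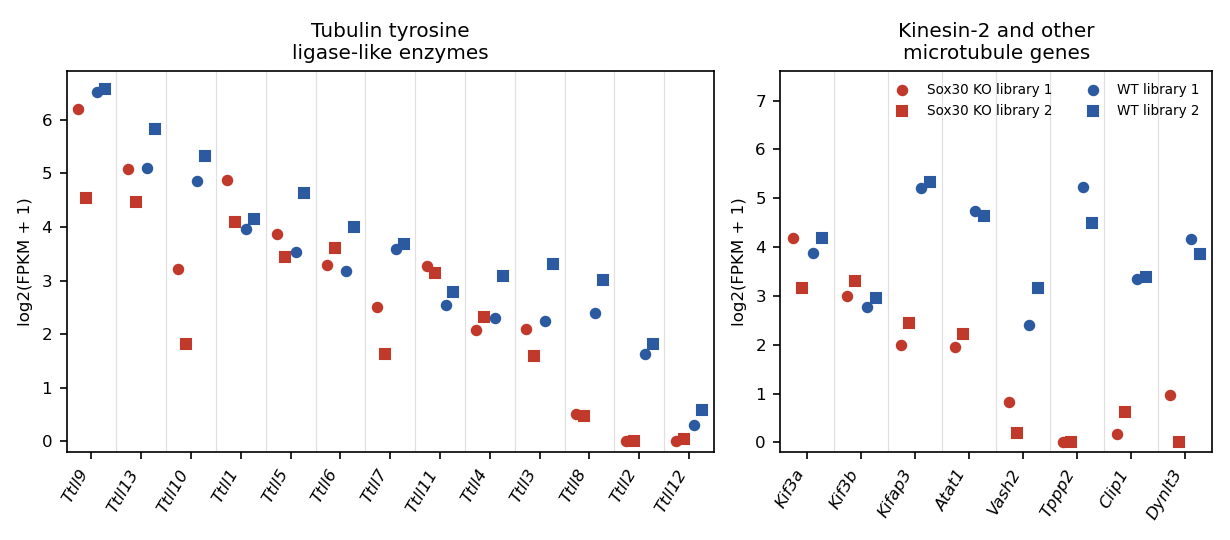
Levels as log2(FPKM + 1) of the 13 Ttll genes, ordered by mean level (left), and of the kinesin-2 motor subunits Kif3a and Kif3b with 6 microtubule genes outside the families (right); knockout libraries are red, WT libraries blue, circles library 1 and squares library 2. Ttll10, Ttll8 and Ttll2 lie well apart by genotype, as does Kifap3, while the Kif3a and Kif3b points lie close together.

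Among the kinesins 21 of 42 were tested and Kif2b alone passed. Kif2b, of the kinesin-13 group that takes tubulin off microtubule ends, had 21.1 and 23.2 FPKM in the knockout libraries, against 76.0 and 104 FPKM in the WT libraries. It fell by 1.96 (SE 0.31, limma adjusted p = 0.0104), with an adjusted p of 0.149 without WT library 1 and 0.214 without WT library 2. In the WT it was 1 of the 2 most abundant kinesin transcripts with Kif9. Its relatives did not pass: Kif2a overlapped at 12.01 and 29.9 against 21.8 and 24.0 FPKM, and Kif2c had 13.9 and 9.22 against 15.6 and 26.7 FPKM (limma adjusted p = 0.241).

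Kif17, whose testis form in mouse carries the CREM coactivator ACT in spermatids, had 1.67 and 1.35 FPKM in the knockout libraries, against 3.97 and 5.37 FPKM in the WT libraries. The genotypes did not overlap, and the log2 change of -1.17 (SE 0.36) did not pass (limma adjusted p = 0.0858). It passed without knockout library 1 (0.0148) and after a correction for transcript GC content (0.0259). It did not pass with no filter on low values (0.151) or without WT library 1 (0.277) or 2 (0.356), and quantile normalization gave a change of -0.60 (0.266). Kifc1, a minus-end-directed kinesin known from the manchette and acrosome, was barely detected, at 2.08 and 0 FPKM in the knockout and 0.0305 and 0.277 FPKM in the WT. It has close copies in the mouse genome, Kifc5b among them, so reads could be split or lost between them and its level is uncertain. Kifc3, another minus-end-directed kinesin, had 7.74 and 6.75 FPKM in the knockout, against 1.58 and 3.28 FPKM in the WT, without overlap, and did not pass (limma adjusted p = 0.0896). Kif3a and Kif3b, the motor subunits of the kinesin-2 that moves cargo into cilia and flagella, did not pass. Kif3a overlapped at 17.2 and 7.92 FPKM in the knockout and 13.8 and 17.1 FPKM in the WT (limma adjusted p = 0.617). Kif3b lay slightly higher in the knockout libraries, with 7.003 and 8.91 FPKM there and 5.82 and 6.73 FPKM in the WT libraries. Kif5b, Kif16b and Kif1b were tested at lower levels and did not pass.

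Of the cilium and flagellum kinesins, Kif9, a motor of the axoneme's central pair, had 86.4 and 37.6 FPKM in the knockout libraries, against 57.5 and 105 FPKM in the WT libraries (log2 change -0.44, SE 0.51, limma adjusted p = 0.589). Its genotypes overlapped, and its mean over the 4 libraries was the highest of the kinesins, although Kif2b was higher in WT library 1. Kif27 had 6.21 and 5.69 FPKM in the knockout, against 8.56 and 14.4 FPKM in the WT, and Kif7, a Hedgehog pathway kinesin, 1.505 and 0.668 against 1.70 and 2.25 FPKM, neither past the threshold.

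None of the 9 tested division kinesins passed, and 7 of the 9 changes were negative, as were 59.8% of those of all genes tested. Kif22, which pushes chromosome arms, had 34.8 and 25.2 FPKM in the knockout, against 11.1 and 22.7 FPKM in the WT (limma adjusted p = 0.235). Kif18b had 25.4 and 10.9 against 4.90 and 10.9 FPKM, and Kif20a, a cytokinesis motor, 26.7 and 7.75 against 18.3 and 31.7 FPKM. Kif11, the motor that separates spindle poles, had 1.10 and 0.931 FPKM in the knockout, against 2.29 and 2.42 FPKM in the WT (limma adjusted p = 0.181), and Kif15, which works beside it, 0.764 and 0.589 against 2.14 and 1.99 FPKM (0.125). Markers of meiotic division (9 genes) summed to 1497 and 759 FPKM in the knockout libraries and 868 and 948 FPKM in the WT libraries, and 1 of the 9 passed, Bub1, which fell. Their part in the kinesin values was not tested.

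**Figure D4:**
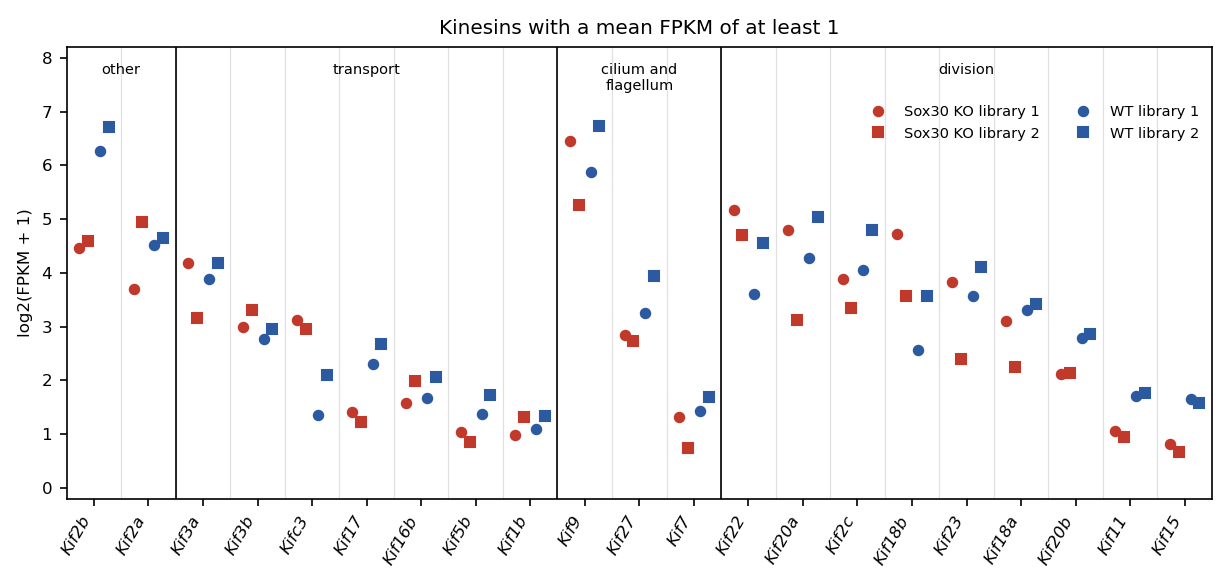
Levels of the 21 tested kinesins in each library as log2(FPKM + 1), grouped by role and ordered by mean level within a group; knockout libraries are red, WT libraries blue, circles library 1 and squares library 2. Kif2b shows the clearest separation by genotype, and among division kinesins Kif20a and Kif23 show knockout library 1 above knockout library 2.

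The other 33 members had means under 1 FPKM and were not tested: 21 kinesins and 12 tubulin, ring complex, Ttll and Agbl genes, 4 of them at 0 in all 4 libraries. Only 6 of the 33 reached 1 FPKM in any library. They included the neuronal transport motors Kif1a and Kif5a, both at or under 0.0450 FPKM. Kif4 and Kif4b are near-copies that may share reads, at 0.397 and 0.386 against 0.381 and 0.468 FPKM for Kif4 and 0.252 and 0.253 against 0.720 and 1.12 FPKM for Kif4b. Counted over all 95, 57 and 49 genes reached 1 FPKM in the knockout libraries and 63 and 66 in the WT libraries. At 0 were 14 and 19 of the 95 in the knockout libraries, against 5 and 4 in the WT libraries. Over all 22552 symbols, 9329 and 11112 were at 0 in the knockout libraries, against 6414 and 5915 in the WT libraries. Lower detection in the knockout was therefore not particular to these families.

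Other microtubule genes, a list of 78 chosen from textbook roles, of which 76 were in the tables and 52 were tested, gave 9 falls, 0 rises and 43 that did not pass, 17.3% falls against 13.4% of all genes tested. The median log2 change was -0.39, against -0.23 for all genes. Kifap3, the adaptor subunit that joins Kif3a and Kif3b in kinesin-2, had 2.99 and 4.48 FPKM in the knockout libraries, against 36.1 and 39.2 FPKM in the WT libraries, and fell by 3.05 (SE 0.35, limma adjusted p = 0.00294). The ratio of Kif3a to Kifap3 FPKM was 5.77 and 1.77 in the knockout libraries and 0.381 and 0.437 in the WT libraries. Atat1, the alpha-tubulin acetyltransferase, had 2.87 and 3.64 FPKM in the knockout, against 25.6 and 24.0 FPKM in the WT, and fell by 2.61 (SE 0.34, limma adjusted p = 0.00463). Vash2, a carboxypeptidase that removes the terminal tyrosine of alpha-tubulin, had 0.764 and 0.148 FPKM in the knockout, against 4.32 and 7.89 FPKM in the WT (limma adjusted p = 0.0198). Tppp2, a tubulin-binding protein of the testis, was listed at 0 in both knockout libraries, against 36.8 and 21.7 FPKM in the WT libraries (limma adjusted p = 0.00107). Clip1, a plus-end binding protein, had 0.130 and 0.541 FPKM in the knockout, against 9.14 and 9.49 FPKM in the WT. Dynlt3, a dynein light chain, had 0.961 and 0 FPKM in the knockout, against 17.0 and 13.5 FPKM in the WT (limma adjusted p = 0.00375 for Clip1 and 0.00457 for Dynlt3). Without WT library 1, 1 gene of the list fell (Tppp2, 0.0468), and without WT library 2 none did. Vash2 did not pass with a pseudocount of 0.1 (0.0541) or with no filter on low values (0.0814), nor Dynlt3 with a pseudocount of 0.1 (0.0519).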

How the data were processed

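The members, gene lists and tests were chosen with earlier results of these data known. The deposited values are FPKM per gene symbol, computed by the authors, per the file headers. Build mm9 and the tools Cuffdiff, Cufflinks 2.0.2 and TopHat2 2.0.6 are listed in the submitters' processing notes without their roles. The annotation and strand setting were not found in the labels or headers. Overlapping antisense genes therefore cannot be told apart. Entries of 1 symbol were summed (23021 entries, 22552 symbols). Genes with a mean of at least 1 FPKM (9124) were fitted in limma 3.58.1 (R 4.3.3) on log2(FPKM + 1), a scale that understates changes of low genes, with genotype as the only term, empirical Bayes with a mean-variance trend, two-sided tests and Benjamini-Hochberg adjustment over all genes tested (threshold 0.05). A level filter on the mean keeps genes that are high in 1 genotype only. Read counts were not used here, so no counting intervals are given.

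Genes were named by a rule: Sox30, Tuba3a, Tuba3b, Tuba8, Kif17 and Kifc1, every member past the threshold, the 3 of highest mean FPKM in each family, and the 6 largest changes past the threshold among the related genes. Others named were picked after their values were seen, and 1 gene that the rule names is not reported here. The fit was tested on simulated data for this comparison (9124 genes, 200 changed): 29.6% of changes of 2 and 74.8% of changes of 4 on the log2 scale were recovered. The changed genes were drawn only from genes with high WT levels, so neither share covers lower ones. Recovery at lower levels, such as those of Ttll2, Ttll8, Tuba4a and Tubb6, was not tested. Relative depth is the commonest ratio of values under 1 FPKM. Promoters were matched by RefSeq symbol for 76 members, with members on chromosome 18 left out. GC content came from GENCODE M21 transcripts (98.6% of genes tested). Alternatives were other pseudocounts, filters and scalings, a GC correction (lowess, span 0.3), a 2-fold rule, leaving out each library and the library number as a block.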

Additional observations from a re-analysis of the deposited data

How the results depend on the processing

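With 2 libraries per genotype and depth unknown, genes that did not pass are not shown to be unchanged. The 7 falls among the members were also called with a pseudocount of 5, both scalings, the block, the GC correction and without either knockout library. Of those 7, 4 passed with a pseudocount of 0.1 (4 falls in all) and 4 with no filter on low values (5 falls). With a mean of at least 5 FPKM, Ttll2, Ttll8 and Tuba4a were too low to be tested, and the other 4 of the 7 passed (5 falls). Falls ranged from 0 to 26 and rises from 0 to 6 when 1 library was left out. Rises numbered 1 with a pseudocount of 5, with a mean of at least 5 FPKM and after the GC correction, and 2 with median-ratio scaling and with quantile normalization. The 2-fold rule gave 8 falls and 0 rises (all genes 1328 and 194). The median log2 change of the members was -0.17 with quantile normalization and -0.13 after the GC correction, where that of all genes was 0.17 and 0.02. All-gene falls moved most when 1 library was left out, from 0 (without WT library 2) and 386 (without WT library 1) to 1846 (without knockout library 2) and 3071 (without knockout library 1), with 0, 0, 898 and 984 rises. All-gene rises numbered 113 with a pseudocount of 0.1, 62 with no filter, 273 with median-ratio scaling, 606 with quantile normalization, 320 after the GC correction and 82 with the block, and 787 genes fell with a mean of at least 5 FPKM. The cause of these shifts was not tested. Rises among the related genes numbered 1 with a pseudocount of 5 and 2 with either scaling, and without 1 library their falls ranged from 0 to 20.

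The replicate block, the library number shared between genotypes, kept 7 falls and 0 rises among the 62 members tested (all 9124 genes 1056 and 82). Deviations of same-numbered libraries from their genotype means correlated weakly and negatively (r = -0.201 across genes). With 2 libraries per genotype, crossed libraries give the same value with the sign turned. Whether the numbers mark a shared batch therefore cannot be told. A crossed pairing, added after seeing the data, gave 10 falls and 1 rise among the members (all genes 1416 and 390).

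Small changes that did not pass turned sign with some settings. With median-ratio scaling Agbl4 was at 0.0926 and Tubgcp2 at 0.0801. With quantile normalization Agbl4 was at 0.0418, Tubgcp2 at 0.33, Tuba3a at -0.33, Tuba3b at -0.49 and Tubb2c at -0.25. After the GC correction Agbl4 was at 0.26, Agbl5 at -0.0352, Tuba3a at -0.0365 and Tuba3b at -0.15. With 1 library left out, values ranged from -0.52 to 0.67 for Agbl5, -0.79 to 0.86 for Katnal2, -0.16 to 0.43 for Tuba3a, -0.32 to 0.33 for Tuba3b, -0.15 to 0.51 for Tubb2c, -0.50 to 0.25 for Tubgcp2, -0.30 to 0.0403 for Agbl4 and -1.03 to 0.15 for Kif9.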

Other observations

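Libraries of the same genotype differed in these families in a way that crosses the library numbers. Knockout library 1 was above knockout library 2 for 48 of the 62 tested members (77.4%, against 60.7% of all genes tested), and WT library 2 was above WT library 1 for 53 (85.5%, against 58.8%). Both held for 42 members (67.7%, against 40.0% of all genes tested), among them Kif9, Katnal2, Agbl5, Kif20a, Tuba3a and Tuba3b. Median transcript GC content was 52.9% for these 42 and 49.5% for the other 20, and 50.0% for all genes tested. Whether GC content has a part in the pattern was not tested.

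Of the 62, 8 had each knockout library at least 2-fold below both WT libraries in FPKM + 1, the 7 that passed the test and Ttll7, where 14.6% of all genes tested did.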
